A study of Mus musculus with 5 samples.

Results

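A set of 10 genes of glucose uptake and glycolysis (10 of the 31055 genes counted) was followed through single-cell RNA sequencing (scRNAseq) of Prx1-derived muscle cells in mice with an intact leg, a tibial fracture, or a fracture combined with muscle injury (polytrauma). The genes were listed by name: *Slc2a1*, *Hk2*, *Pfkl*, *Aldoa*, *Gapdh*, *Pgk1*, *Eno1*, *Pkm*, *Ldha* and *Pdk1*. All 10 were detected in every library. The cells came from C57Bl/6 mice carrying Prx1Cre and the mTmG reporter, which marks with membrane GFP every cell that ever expressed Prx1 Cre and leaves other cells Tomato-positive. GFP+ cells were sorted from hindlimb muscle without periosteum and bone marrow at d0 (uninjured), at d3 and d5 post-fracture (non-stabilized tibial fracture) and at d3 and d5 post-polytrauma. Prx1Cre labels the whole limb mesenchyme, so the sort does not select 1 cell type. The mice were young adults of both sexes, and the age and sex of the mice in each library are not given in the sources used here. The paper describes its experimental groups as alike in sex and age.

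Glycolysis splits glucose into pyruvate and yields ATP without oxygen. Glucose enters through transporters, is trapped by hexokinase, and is carried through a chain of enzymes to pyruvate, which either enters mitochondria through pyruvate dehydrogenase or is reduced to lactate. Many of these genes are known targets of the transcription factor HIF-1 under low oxygen, and cartilage, which lacks vessels, is known for its reliance on glycolysis.

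The libraries held 2001 to 13641 cell barcodes. Cells with 350 to 8000 detected genes, under 20% mitochondrial UMIs (unique molecular identifiers, 1 per captured RNA molecule) and at least 1000 UMIs were retained, which gave 4632 cells at d0, 5589 at d3 post-fracture, 1468 at d5 post-fracture, 6201 at d3 post-polytrauma and 11941 at d5 post-polytrauma. Each library pooled 2 mice and each condition had 1 library, so the differences carry counting intervals but no test. The assignments of 2 libraries go against the deposited labels. The cell numbers that accompany the paper fit 2 libraries only with their conditions exchanged, so d3 post-polytrauma here is the library deposited as d5 after fracture, and d5 post-fracture is the one deposited as d3 after polytrauma. Values under the deposited labels stand beside the members' median of each comparison between injured libraries over all retained cells. They are not given for comparisons by cell class, cluster or other gene list. The 2 libraries assigned to d5 also carry cell barcodes of another set than the other 3, although the paper names a v2 kit without setting any library apart. Barcode set and day therefore cannot be told apart. By the deposited labels these would be the 2 polytrauma libraries, and barcode set and injury could not be told apart. Of the retained d5 post-fracture barcodes, 869 (59.2%) also occurred at d5 post-polytrauma, against 1.99% to 4.03% shared barcodes in the other libraries. A shared barcode was then assigned to the library that holds at least 10 times the UMIs of the other. Of the 869, 11 were not assigned to d5 post-fracture by this rule. Of 342 shared d5 post-polytrauma barcodes, 338 were not assigned to d5 post-polytrauma. Such barcodes were assigned either to the other library or to none. Leaving them out of each library kept 1457 d5 post-fracture cells, and all 50 member ratios kept their direction. Depth differed, with a median of 3640 UMIs per cell at d0 and 15688 to 34949 after injury. In every library *EGFP* was at 1804 to 2820 UMIs per 1000000 (CPM) and *tdTomato* at no more than 0.0194 CPM. *tdTomato* was as low at d3 post-polytrauma, which held a cluster of 91 hematopoietic-like cells, so it does not measure the purity of the sort. Cells with at least 2 of 8 hematopoietic markers made up 0.0695% to 1.37% of cells thinned to 2000 UMIs, and leaving them out moved no median by more than 0.02 on the log2 scale.

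All 10 genes are protein-coding (GENCODE M21 on GRCm38). *Slc2a1* lies at chr4:119108711-119137983, + strand, *Hk2* at chr6:82725025-82774454, - strand, *Pfkl* at chr10:77986947-78010083, - strand, *Aldoa* at chr7:126795234-126800751, - strand, and *Gapdh* at chr6:125161715-125166467, - strand. *Pgk1* lies at chrX:106187100-106203699, + strand, *Eno1* at chr4:150236721-150248879, + strand, *Pkm* at chr9:59656368-59679375, + strand, *Ldha* at chr7:46841475-46855627, + strand, and *Pdk1* at chr2:71873224-71903858, + strand. Promoter windows from RefSeq (GRCm38.p6, 250 bases before to 50 after a start site) matched all 10 genes with 17 windows. They were searched on both strands for ACGTG and GCGTG, the core words of the hypoxia response element that HIF-1 binds. Of the 17 windows 14 held a match, at least 1 window for each gene, while 43.8% of all 32851 windows in the table held one. Both words contain CG, and the windows of the table were not matched to those of the members in base content. The windows of 4 genes, picked after the values were seen, are printed. They set *Pgk1* and *Ldha*, which followed most enzymes of the pathway, beside the transporter *Slc2a1* and beside *Hk2*. The order of libraries of *Hk2* was not that of *Pgk1* and *Ldha*, although *Hk2* was also lower at d5 than at d3 after both injuries. Capitals mark the matches.
Pgk1 promoter window (chrX:106186850-106187149, + strand): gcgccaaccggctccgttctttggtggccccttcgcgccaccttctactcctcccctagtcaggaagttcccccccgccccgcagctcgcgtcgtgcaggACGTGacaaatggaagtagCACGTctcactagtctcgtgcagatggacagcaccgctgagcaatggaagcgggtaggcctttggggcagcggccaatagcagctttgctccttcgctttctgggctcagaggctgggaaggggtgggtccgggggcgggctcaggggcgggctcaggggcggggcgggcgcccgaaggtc
Ldha promoter window (chr7:46845554-46845853, + strand): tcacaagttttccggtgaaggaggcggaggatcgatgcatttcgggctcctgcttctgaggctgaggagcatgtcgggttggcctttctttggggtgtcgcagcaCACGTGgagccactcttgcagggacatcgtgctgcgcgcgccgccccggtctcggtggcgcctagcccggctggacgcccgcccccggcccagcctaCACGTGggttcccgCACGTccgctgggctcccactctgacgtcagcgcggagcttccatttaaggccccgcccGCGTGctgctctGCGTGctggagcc
Slc2a1 promoter window (chr4:119108495-119108794, + strand): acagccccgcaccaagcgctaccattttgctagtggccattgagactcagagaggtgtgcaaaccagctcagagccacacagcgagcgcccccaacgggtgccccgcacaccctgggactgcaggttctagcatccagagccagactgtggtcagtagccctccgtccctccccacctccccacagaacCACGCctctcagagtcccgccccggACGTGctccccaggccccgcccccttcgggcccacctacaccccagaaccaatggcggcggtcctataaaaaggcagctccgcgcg
Hk2 promoter window (chr6:82774405-82774704, - strand): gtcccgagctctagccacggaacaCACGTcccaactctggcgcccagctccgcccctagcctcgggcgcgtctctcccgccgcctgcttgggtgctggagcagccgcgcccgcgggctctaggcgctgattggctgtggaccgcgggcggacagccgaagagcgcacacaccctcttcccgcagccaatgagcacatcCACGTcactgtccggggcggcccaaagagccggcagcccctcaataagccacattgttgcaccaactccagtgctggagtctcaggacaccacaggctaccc
*Ldha* held 7 matches, of which 4 come from 2 copies of CACGTG, which holds the word on both strands. *Pgk1*, *Slc2a1* and *Hk2* held 2 each. The relation of matches to levels was not tested. A match says only that these letters lie in the window.

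*Slc2a1* encodes GLUT1, the main transporter of basal glucose uptake. It was at 33.4 CPM at d0, 73.7 at d3 post-fracture, 27.8 at d5 post-fracture, 105 at d3 post-polytrauma and 48.9 at d5 post-polytrauma. A level in CPM is the gene's UMIs in all retained cells, per 1000000 UMIs of all genes, and is not divided by gene length. *Hk2* encodes hexokinase 2, which phosphorylates glucose. It was at 451 CPM at d0, 357 at d3 post-fracture, 326 at d5 post-fracture, 387 at d3 post-polytrauma and 248 at d5 post-polytrauma, so it alone among the 10 was highest at d0, although with median-of-ratios scaling both d3 libraries were above d0 (log2 ratios 0.13 and 0.23). *Pfkl*, the liver-type subunit of phosphofructokinase, which commits sugar to glycolysis, was at 16.1 CPM at d0, 53.9 at d3 post-fracture, 40.1 at d5 post-fracture, 71.8 at d3 post-polytrauma and 55.1 at d5 post-polytrauma. 

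*Aldoa* encodes aldolase A, which splits the 6-carbon sugar. It was at 564 CPM at d0, 967 at d3 post-fracture, 344 at d5 post-fracture, 1098 at d3 post-polytrauma and 592 at d5 post-polytrauma. *Gapdh*, glyceraldehyde-3-phosphate dehydrogenase, had the most UMIs of the 10 in every library, with 608 CPM at d0, 2984 at d3 post-fracture, 1131 at d5 post-fracture, 3161 at d3 post-polytrauma and 2048 at d5 post-polytrauma. *Pgk1*, phosphoglycerate kinase, the first step that makes ATP, was at 104 CPM at d0, 696 at d3 post-fracture, 305 at d5 post-fracture, 864 at d3 post-polytrauma and 617 at d5 post-polytrauma. *Pgk1* is X-linked, and *Xist*, the RNA that silences 1 X chromosome in female cells, was at 1.15 CPM at d5 post-polytrauma against 411 to 1040 in the other libraries. This low *Xist* enters every comparison with d5 post-polytrauma, so the sex of the mice and the condition cannot be told apart there. The part of the *Xist* difference in the level of *Pgk1* or of the other genes was not tested.

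*Eno1*, enolase 1, was at 157 CPM at d0, 1056 at d3 post-fracture, 493 at d5 post-fracture, 1141 at d3 post-polytrauma and 558 at d5 post-polytrauma. *Pkm*, the muscle-type pyruvate kinase that makes pyruvate, was at 284 CPM at d0, 1316 at d3 post-fracture, 494 at d5 post-fracture, 1528 at d3 post-polytrauma and 942 at d5 post-polytrauma. These counts do not separate its M1 and M2 splice forms. *Ldha*, the lactate dehydrogenase subunit that favours lactate, was at 394 CPM at d0, 1231 at d3 post-fracture, 517 at d5 post-fracture, 1327 at d3 post-polytrauma and 942 at d5 post-polytrauma. *Pdk1*, the kinase that switches off pyruvate dehydrogenase and so holds pyruvate back from mitochondria, was the rarest, with 2.75 CPM at d0 (48 UMIs), 8.96 at d3 post-fracture, 17.5 at d5 post-fracture, 12.9 at d3 post-polytrauma and 21.6 at d5 post-polytrauma.

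The same order of libraries held for *Gapdh*, *Pgk1*, *Eno1*, *Pkm* and *Ldha*: d3 post-polytrauma first, then d3 post-fracture, d5 post-polytrauma, d5 post-fracture and d0. *Slc2a1* and *Aldoa* differed from it only in having d5 post-fracture last. *Pdk1* was higher at d5 than at d3 after both injuries. The exact 95% Poisson intervals of neighbours overlapped only for *Pfkl*, between d3 post-fracture (52.4 to 55.3 CPM) and d5 post-polytrauma (54.1 to 56.1 CPM). Intervals here and below cover counting error only.

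**Figure D1:**
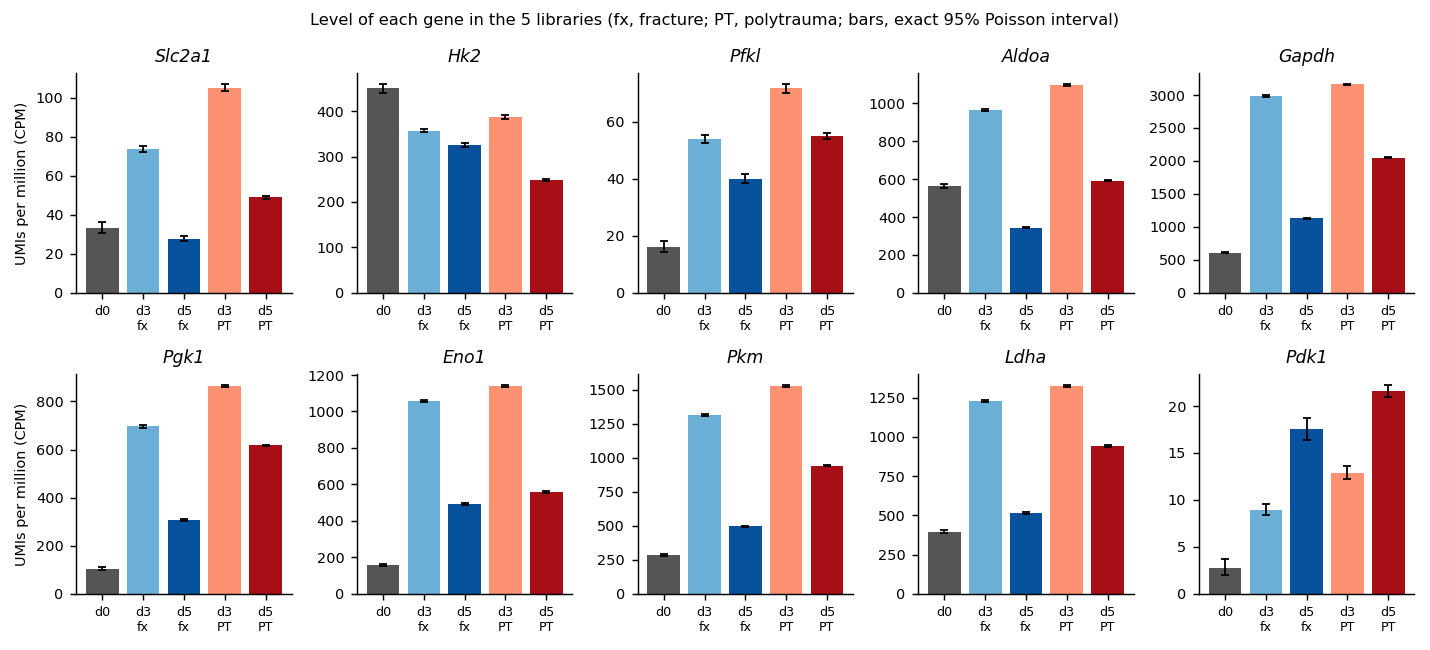
Level of each gene (CPM, vertical axis from 0) in the 5 libraries, 1 library per condition, with exact 95% Poisson intervals as error bars. The d3 post-polytrauma library stands highest for 8 genes, *Hk2* is highest at d0 (451 CPM) and *Pdk1* at d5 post-polytrauma (21.6 CPM).

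Fracture at d3 was compared with uninjured muscle. Of the members, *Pfkl*, *Gapdh*, *Pgk1*, *Eno1*, *Pkm*, *Ldha* and *Pdk1* were at least 3.12-fold higher at d3 post-fracture, led by *Eno1* (6.73-fold) and *Pgk1* (6.68-fold). In all, 8 of 10 genes were 2-fold or more higher and 0 were 2-fold or more lower, while of the 14610 genes with at least 20 UMIs over both libraries 13.4% were 2-fold or more higher and 33.5% lower. The members' median log2 ratio was 1.72, against −0.45 for all these genes. *Gapdh* had a log2 ratio of 2.30 (95% interval 2.27 to 2.32), *Pkm* 2.21 (2.17 to 2.25) and *Pdk1* 1.70 (1.28 to 2.15). The transporter *Slc2a1* was at 1.14 (1.02 to 1.26) and *Aldoa* at 0.78 (0.75 to 0.81). *Hk2* had a log2 ratio of −0.33 (−0.37 to −0.30), which became 0.13 with median-of-ratios size factors in place of totals. That scaling sets the shift of all genes near 0 and put the members' median at 2.19, with 9 genes 2-fold or more higher against 21.3% of all genes. Dividing cells (at least 2 of 12 division genes after thinning to 2000 UMIs) were 0.103% of d0 cells and 26.1% of d3 post-fracture cells, and without them the median was 1.74.

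At d3 post-polytrauma the levels against d0 ran the same way (median log2 ratio 2.19, from −0.22 for *Hk2* to 3.05 for *Pgk1*), and both comparisons share the d0 library. By the deposited labels these values would compare d5 after fracture with d0. Polytrauma was therefore set directly against fracture at d3. All 10 genes were higher at d3 post-polytrauma, by 1.06-fold (*Gapdh*) to 1.44-fold (*Pdk1*), with *Slc2a1* at 1.43-fold and *Pfkl* at 1.33-fold. None reached 2-fold, which 5.45% of 15038 genes reached upwards and 3.14% downwards. The median log2 ratio was 0.20, against −0.01 for all genes. Without the cluster that has *Ndufa4l2* and *Egln3* among its first 10 genes, described below, the median was 0.11, and *Gapdh* (−0.03) and *Eno1* (−0.03) changed sign. Under the deposited labels the same comparison uses the other library and gives a median of −1.22, with 7 genes 2-fold or more lower.

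The time course ran downwards for most of these genes from d3 to d5. After fracture, 7 of 10 genes were 2-fold or more lower at d5 than at d3 and 0 were 2-fold or more higher, against 5.45% and 40.3% of 15115 genes. *Aldoa* stood at 0.356-fold, *Pkm* at 0.375-fold, *Slc2a1* at 0.377-fold and *Gapdh* at 0.379-fold of the d3 level. *Pfkl* (log2 ratio −0.43) was nearer to it, as was *Hk2* (−0.13, but 0.12 in FAP/MP-like cells, which carry markers of fibro-adipogenic and mesenchymal progenitors, and 0.02 without chondrocyte-like cells), and *Pdk1* was 1.96-fold higher. All genes together shifted by 0.73, so *Pdk1* exceeded that shift by 0.24 while the members' median of −1.22 lay 1.95 below it. Without the chondrocyte-like cells of d5 the median was −1.73, and with all shared barcodes left out, which keeps 599 d5 post-fracture cells, it was −1.64. Under the deposited labels the median is 0.20 and 0 genes are past 2-fold.

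After polytrauma the same 9 genes were lower at d5 than at d3 and *Pdk1* was 1.68-fold higher. Here 2 genes, *Slc2a1* (0.465-fold) and *Eno1* (0.490-fold), were 2-fold or more lower and 0 higher, against 7.49% and 28.8% of 16093 genes. *Pfkl* (0.768-fold), *Pgk1* (0.714-fold) and *Ldha* (0.710-fold) stayed nearest to the d3 level. The members' median was −0.64 and that of all genes 0.48. With median-of-ratios scaling 6 genes were 2-fold or more lower, against 13.4% of all genes. Under the deposited labels the median is 0.80, with 1 gene 2-fold or more higher. The higher level of *Pdk1* at d5 did not appear in cells named FAP/MP-like, where its log2 ratio was −0.21 after fracture and −0.36 after polytrauma. At d3 post-polytrauma this class leaves out the largest cluster (1643 cells), which stayed unnamed with 4 of 5 FAP/MP markers and had *Pdk1* at 7.55 CPM. The clusters within the class had 41.3, 24.1 and 17.5 CPM, so the value after polytrauma depends on how clusters were named.

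Polytrauma against fracture was also compared at d5, where both libraries carry the same barcode set but differ in *Xist* (1.15 and 775 CPM). Of the 10, 9 genes were higher at d5 post-polytrauma, by 1.13-fold (*Eno1*) to 2.02-fold (*Pgk1*), with *Pkm* at 1.91-fold, *Ldha* at 1.82-fold, *Gapdh* at 1.81-fold and *Slc2a1* at 1.76-fold. *Hk2* stood at 0.761-fold. Only *Pgk1* passed 2-fold upwards and 0 passed it downwards, against 3.74% and 14.7% of 15979 genes. The members' median was 0.80, and all genes were at −0.12. This difference depended on which cells were counted: the median was 1.15 with 7 genes past 2-fold without the chondrocyte-like clusters, 1.02 with 5 genes without shared barcodes, and 0.60 with 0 genes without the *Ndufa4l2* and *Egln3* cluster. Without that cluster *Eno1* was at −0.05 and *Pdk1* at −0.0029. The shares of all genes given above are for all retained cells only. Under the deposited labels the median is −0.64, with 2 genes 2-fold or more lower.

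**Figure D2:**
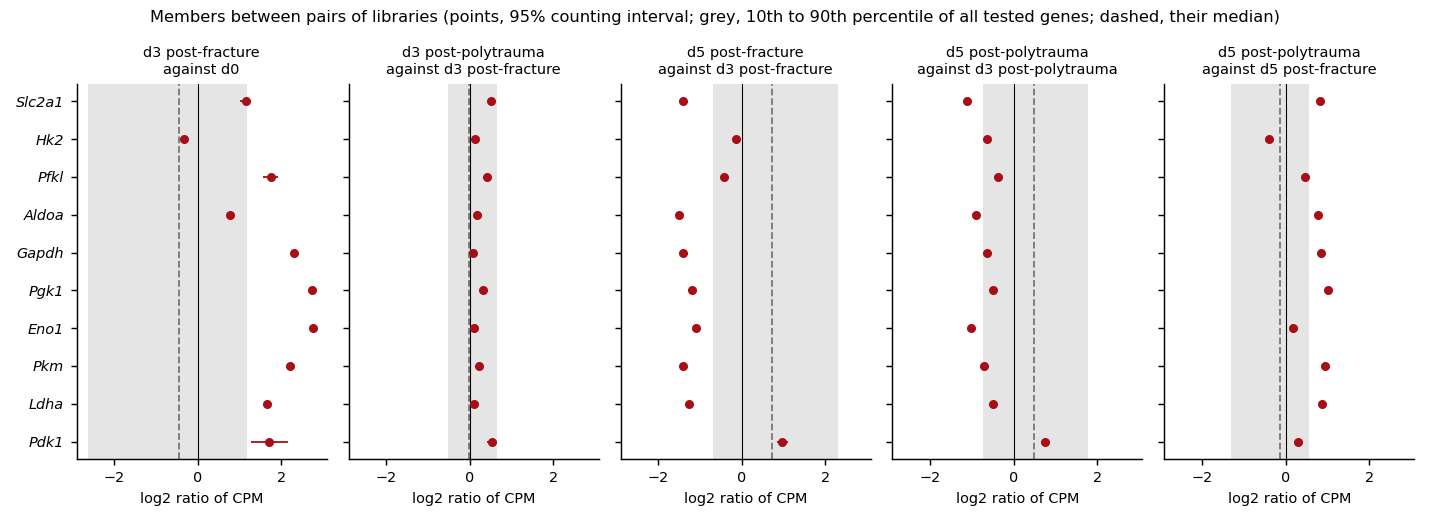
Log2 ratio of CPM (horizontal axis) of each gene in 5 pairs of libraries, with exact 95% counting intervals, the 10th to 90th percentile of all genes with at least 20 UMIs (grey) and their median (dashed). Members lie right of the dashed line in the first comparison, where *Hk2* at −0.33 becomes 0.13 with median-of-ratios scaling, and left of it in both comparisons of d5 with d3 except *Pdk1*.

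The median cell had 0.237% of its UMIs on the 10 genes at d0, 0.723% at d3 post-fracture, 0.243% at d5 post-fracture, 0.775% at d3 post-polytrauma and 0.428% at d5 post-polytrauma. The order is that of the enzymes, but d0 and d5 post-fracture were close, and with a minimum of 2000 UMIs per cell d0 (0.244%) was above d5 post-fracture (0.242%). At d5 post-fracture the pooled share was 0.370%, above the third quartile of its cells (0.354%), so a minority of cells carried much of the RNA. The 90th percentile was 0.592% there and 1.63% at d3 post-polytrauma. In cells thinned to 2000 UMIs, *Pgk1* was detected in 18.5% of cells at d0, 60.7% at d3 post-fracture, 29.2% at d5 post-fracture, 67.6% at d3 post-polytrauma and 51.9% at d5 post-polytrauma. The unthinned shares, which also follow depth, were 30.2%, 91.7%, 85.7%, 96.5% and 87.5% in the same order. *Hk2* was detected in 40.8%, 42.9%, 37.6%, 48.4% and 33.4% of the thinned cells. Thinning left out 744 cells at d0, 225 at d3 post-fracture, 30 at d5 post-fracture, 83 at d3 post-polytrauma and 424 at d5 post-polytrauma. No cell type that lacks glycolysis was at hand to measure the share that free RNA gives.

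**Figure D3:**
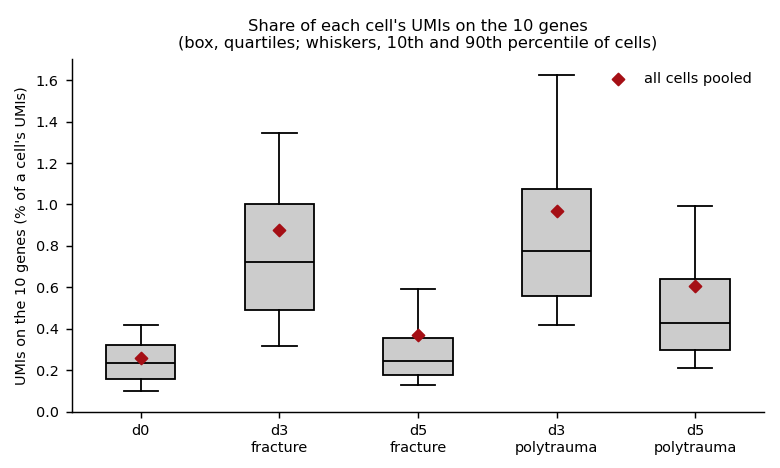
Share of each retained cell's UMIs on the 10 genes (%, vertical axis) in the 5 libraries, with quartiles (box), the 10th and 90th percentile of cells (whiskers) and the share of all cells pooled (diamond). The pooled share at d5 post-fracture (0.370%) lies above the box, and the d3 boxes lie above those of d0.

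Most steps of the pathway can be run by more than 1 gene, and the mix of these isoforms differed between libraries. Of the UMIs of the glucose transporters *Slc2a1*, *Slc2a3* and *Slc2a4*, *Slc2a1* made up 52.0% at d0 (exact 95% interval 49.0 to 54.9) and, after injury, 95.3% (d3) and 81.1% (d5) with fracture and 97.0% (d3) and 91.1% (d5) with polytrauma. *Slc2a4*, the insulin-responsive transporter GLUT4, was at 13.0 CPM at d0 and at 0.145 to 0.771 CPM in the injured libraries, and *Slc2a3* (GLUT3) was at 17.9 against 3.08 to 5.71. Among phosphofructokinase genes, *Pfkl* made up 16.1% at d0 and 59.8%, 48.7%, 66.2% and 52.8% in the same order, with *Pfkl* higher and *Pfkp*, the platelet type, lower after injury (69.2 CPM at d0 and 26.0 to 39.5 later). Muscle-type *Pfkm* ranged from 8.33 to 14.9 CPM.

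*Ldha* made up 89.7% of lactate dehydrogenase UMIs at d0 and 95.4% to 99.3% after injury, while *Ldhb*, the subunit that favours pyruvate, was at 44.7 CPM at d0, 9.27 at d3 post-fracture, 24.9 at d5 post-fracture, 10.4 at d3 post-polytrauma and 11.6 at d5 post-polytrauma. Among the 4 pyruvate dehydrogenase kinases the main gene at d3 was *Pdk3*, with 74.4% of UMIs at d3 post-fracture and 69.7% at d3 post-polytrauma against 27.3% at d0. *Pdk1* made up 13.0% at d0 and 19.8%, 34.3%, 25.7% and 35.3% in the injured libraries. *Pdk2* (8.72 CPM at d0, 1.90 to 6.73 later) and *Pdk4* (3.96 CPM at d0, 0.310 to 1.39 later) were highest at d0. Hexokinase and enolase kept their main gene: *Hk2* held 90.9% to 95.9% of the UMIs of *Hk1*, *Hk2*, *Hk3* and *Hkdc1*, with *Hk1* at 15.3 to 30.3 CPM, and *Eno1* held 92.2% to 99.4% of enolase UMIs. Other isoforms were rare: *Eno2* and *Eno3* were at 1.17 to 9.46 CPM, *Slc2a10* at 6.07 to 12.9, *Slc2a12* at 0.613 to 2.41 and *Aldoc* at 0.172 to 2.02, while *Hk3*, *Hkdc1*, *Ldhc*, *Gapdhs* and *Slc2a6* stayed below 1 CPM and no UMI of *Pklr* or *Pgk2* was counted.

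**Figure D4:**
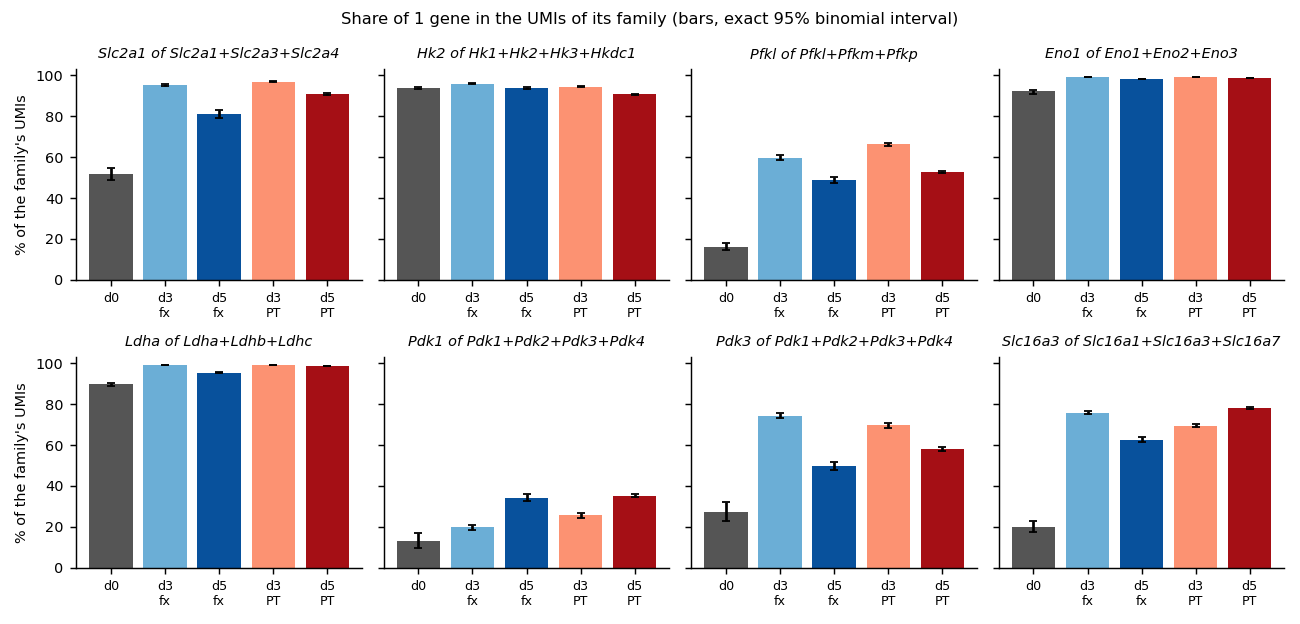
Share of 1 gene in the UMIs of its gene family (%, vertical axis from 0 to 100) in the 5 libraries, after fracture (fx) and polytrauma (PT), with exact 95% binomial intervals. *Slc2a1* (52.0%), *Pfkl* (16.1%), *Pdk3* (27.3%) and *Slc16a3* (19.9%) have their lowest share at d0, while *Hk2* stays between 90.9% and 95.9%.

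Of the enzymes between the members, *Pgam1* and *Tpi1* had the order of libraries of *Gapdh*, and *Gpi1* had d5 post-polytrauma above d3 post-fracture. *Pgam1*, phosphoglycerate mutase, was at 131 CPM at d0, 547 at d3 post-fracture, 314 at d5 post-fracture, 589 at d3 post-polytrauma and 524 at d5 post-polytrauma. *Tpi1*, triosephosphate isomerase, was at 195, 492, 244, 578 and 406 CPM, and *Gpi1*, glucose-6-phosphate isomerase, at 134, 225, 143, 273 and 237 CPM. *Slc16a3*, the lactate exporter MCT4, was at 10.7 CPM at d0, 87.5 at d3 post-fracture, 72.5 at d5 post-fracture, 86.8 at d3 post-polytrauma and 120 at d5 post-polytrauma. Its share in the UMIs of *Slc16a1*, *Slc16a3* and *Slc16a7* was 19.9% at d0 and 62.6% to 78.2% later. Like *Pdk1* it was highest at d5 post-polytrauma. *Bpgm*, which diverts the pathway to 2,3-bisphosphoglycerate, ranged from 7.10 CPM at d5 post-fracture to 20.5 at d3 post-fracture.

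The list of the pathway held 44 further genes. At d3 post-fracture against d0, 36 were testable, 7 were 2-fold or more higher and 12 lower, with a median log2 ratio of −0.50 against −0.45 for all genes, of which 13.4% were higher and 33.5% lower. Of 12 genes often used as markers of hypoxia, 5 were 2-fold or more higher and 2 lower. The 5 include *Car9*, a carbonic anhydrase, with 0 UMIs at d0 and 42 at d3 post-fracture, for which the lower 95% bound of the log2 ratio was 0.93. *Mif*, a cytokine, went from 250 to 1913 CPM and *Bnip3*, a mitophagy receptor, from 22.3 to 75.3 CPM, while *Adm*, the vasodilator adrenomedullin, went from 203 to 27.6 CPM and *Vegfa*, the angiogenic factor, from 44.8 to 17.1 CPM. Respiratory chain and ATP synthase genes had a median log2 ratio of 0.47 (17 genes, 3 at 2-fold or more higher), citrate cycle genes of −0.02 (10 genes) and pentose phosphate genes of 0.31 (7 genes). The 5 serine synthesis genes, whose pathway branches from glycolysis, had a median of 1.26 with 4 at 2-fold or more higher. From d3 to d5 after fracture these medians were −0.71 for the respiratory chain, −0.51 for the citrate cycle, −0.18 for the pentose phosphate pathway and −1.01 for serine synthesis, against −1.22 for the members.

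Cells were clustered within each library without the members and the pathway lists, and levels were then read by cluster, as a description. At d3 post-polytrauma a cluster of 435 cells (7.01% of the library) held the highest level of 8 of the 10 genes among the 10 clusters of that library. It was led by *Cox4i2*, *Krt19*, *Selenbp1* and *Ndufa4l2*, with *Egln3*, an oxygen-sensing prolyl hydroxylase, among its first 10 genes. *Pgk1* was at 2757 CPM in it and 739 in the other cells of the library, *Gapdh* at 6876 and 2914, *Eno1* at 2733 and 1035, and *Ldha* at 2492 and 1250. The hypoxia genes *Bnip3* (410 and 101 CPM) and *Car9* (25.6 and 2.18 CPM) were also higher there, while *Hif1a* was at 120.5 and 158 CPM. *Egln3*, by which the cluster was also singled out, was at 74.5 and 8.63 CPM. The other genes of the hypoxia list are not given for this cluster. *Slc2a1* hardly differed (114 and 105 CPM) and *Hk2* was lower (279 and 394 CPM). The cells carried 3 of 5 FAP/MP markers above the other clusters.

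At d5 post-polytrauma a cluster of 1033 cells (8.65%), led by *Ankrd1*, *Ereg* and *Lcn2*, also had *Ndufa4l2* and *Egln3* among its first 10 genes. There *Pgk1* was at 1491 CPM against 501 in the other cells, *Ldha* at 1837 against 823, *Slc2a1* at 106 against 41.3 and *Hk2* at 160 against 260. No cluster of d0, d3 post-fracture or d5 post-fracture had both genes among its first 10. At d3 post-fracture the highest level was in an unnamed cluster of 1638 cells led by *Ass1* and *Il11*, where the 10 genes summed to 11215 CPM against 5257 in the FAP/MP-like cluster of 1180 cells. Dividing cells made up 37.3% of the former and 5.96% of the latter. The cluster of that library with the largest share of dividing cells (53.6%) summed to 7993 CPM. An unnamed cluster of 1580 cells at d3 post-polytrauma, also led by *Ass1*, had a similar sum (11266 CPM) and 38.4% dividing cells. The cluster with the largest share of dividing cells at d3 post-polytrauma (51.3%) summed to 8138 CPM.

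At d5 post-fracture 9 of the 10 genes were highest in chondrocyte-like cells. A cluster of 174 cells (11.9%), led by *Col2a1*, the main collagen of cartilage, and *Hapln1*, held 48.1% of all *Pgk1* UMIs, 47.3% of *Slc2a1* UMIs and 46.4% of *Eno1* UMIs of the library. *Pgk1* was at 903 CPM in it and at 189 in the other cells, *Pkm* at 1215 and 354, *Ldha* at 1269 and 372, and *Pdk1* at 35.2 and 14.1. Of the 10, 9 genes were 2-fold or more higher there, and *Hk2* was lower (129 and 364 CPM). The share of all genes past 2-fold between these cells is not given, so this count has no background. The 10 genes summed to 8088 CPM there and to 1845 and 1897 in the 2 FAP/MP-like clusters. Dividing cells made up 46.8% of this cluster, 80.3% of another cluster of the library, where the 10 genes summed to 3989 CPM, and at most 2.70% of the others. Of the barcodes of the chondrocyte-like cluster 77.0% also occurred in another library. The chondrocyte-like cluster of d5 post-polytrauma (548 cells) had a median of 1752.5 UMIs against 15753 in the whole library, and 51.1% of its barcodes were shared. Its *Pgk1* was at 841 CPM against 613 in the other cells, and no member was 2-fold higher there.

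In uninjured muscle *Slc2a1* stood apart from the enzymes. A perineurial-like cluster of 136 cells, with *Cldn1* at 183 CPM against 2.99 in other d0 cells, had *Slc2a1* at 404 CPM against 25.2, and so 26.4% of the library's *Slc2a1* UMIs came from 2.94% of its cells. GLUT1 is known as the glucose transporter of the perineurium, the barrier around nerve bundles. No other library had a perineurial-like cluster, although an unnamed cluster of 72 cells at d3 post-polytrauma carried 3 of 5 perineurial markers beside 3 of 5 myogenic ones, with *Slc2a1* at 117 CPM, and the 5 perineurial markers summed to 25.1 CPM at d0 and 1.66 to 7.77 later. Several enzymes were highest at d0 in the pericyte-like cluster (742 cells), with *Aldoa* at 1118 CPM, *Pkm* at 567 and *Pfkl* at 54.0. The range of *Pgk1* over the 12 d0 clusters of at least 50 cells was narrow, from 71.6 to 135 CPM, against 67.4 to 903 CPM over the 7 of d5 post-fracture.

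*Hk2* differed from the other genes across clusters as well. It varied widely among FAP/MP-like clusters, from 188 to 835 CPM over the 5 of d0. At d3 post-polytrauma it was at 865 CPM in the one led by *Ccl8* and *Clec3b*, and at 279 and 22.4 CPM in the others. It was at 517 and 462 CPM in those of d3 post-fracture, and ranged from 91.3 to 520 CPM in those of d5 post-polytrauma. In those of d5 post-fracture, where the 10 genes had their lowest sums, it was at 556 and 566 CPM. It was at 114 and 129 CPM in the chondrocyte-like clusters and at 75.8 to 198 CPM in the 5 pericyte-like clusters, of which that of d5 post-fracture has only 39 cells. Over 48 clusters of at least 50 cells, Pearson r between *Hk2* and the others, on log2(CPM + 1), was lowest with *Pfkl* (−0.49), *Pkm* (−0.48) and *Ldha* (−0.43), and was 0.09 with *Slc2a1*. The highest pairs were *Gapdh* with *Pkm* (0.98) and with *Pgk1* (0.97). Within single libraries the sign differed. There r of *Hk2* with the mean of the 10 genes, which it enters, was 0.32 at d3 post-fracture and 0.26 at d3 post-polytrauma. It was −0.18 at d5 post-polytrauma, −0.26 at d0 and −0.95 at d5 post-fracture. Clusters of 1 library share its depth and day, so the values over all clusters only describe the 48 points.

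**Figure D5:**
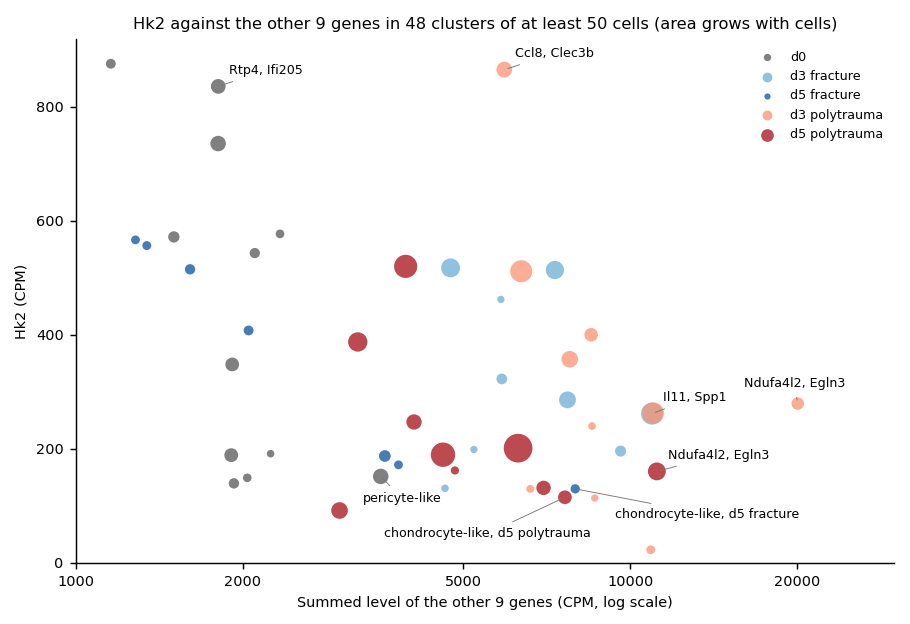
Level of *Hk2* (CPM, vertical axis) against the summed level of the other 9 genes (CPM, log scale) in 48 clusters of at least 50 cells, coloured by library, with area growing with the number of cells. Both clusters with *Ndufa4l2* and *Egln3* among their first 10 genes and both chondrocyte-like clusters lie to the right with *Hk2* at or below 279 CPM, and the highest *Hk2* levels (above 700 CPM) lie in clusters of d0 and d3 post-polytrauma.

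Limiting the comparisons to FAP/MP-like cells widened the difference between injuries. The members' median log2 ratio of d3 post-polytrauma against d3 post-fracture was 1.31 in these cells, with 9 genes 2-fold or more higher, and 0.52 with 2 genes once the *Ndufa4l2* and *Egln3* clusters were left out. At d5 the medians were 2.14 and 1.62, with 9 genes past 2-fold in each. The share of all genes past 2-fold in these cells is not given. A shift of all genes and one of the members therefore cannot be told apart here. By the deposited labels the d3 pair would compare d5 with d3 after fracture, and the d5 pair d5 with d3 after polytrauma. Different clusters make up the class in each library (1353 cells of 3 clusters at d3 post-polytrauma, 1232 of 2 at d3 post-fracture, 7022 of 5 and 290 of 2 at d5). The largest d3 post-polytrauma cluster (1643 cells) stayed unnamed although it carried 4 of 5 FAP/MP markers, and had the members at 6871 CPM in sum. The 3 clusters in the class there had 20353 and 10917 CPM (3 of 5 markers each) and 6792 CPM (5 of 5). These medians thus depend on the naming rule, which was set after the clusters were seen.

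The genes outside the members whose level over the 48 clusters was most like the members' mean were *Mif* (r = 0.95), *Pgam1* (0.94), *Prelid1* (0.94), *Tpi1* (0.93), *Higd1a* (0.92), *Fam162a* (0.91), *Mrpl54* (0.90), *Gpi1* (0.90), *Atp5g2* (0.89) and *Prdx5* (0.87), among 2518 genes with a mean of at least 50 CPM. Of these, *Pgam1*, *Tpi1* and *Gpi1*, are glycolytic enzymes of the pathway list. Within the 12 d0 clusters alone r ranged from −0.07 (*Higd1a*, *Mrpl54*) to 0.70 (*Tpi1*). Among the members themselves *Pgk1* (0.98) and *Gapdh* (0.98) were closest to the mean they enter, and *Hk2* was at −0.29.

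Counts of some members can be split with near-identical copies. *Eno1b*, a copy of *Eno1*, had 11 to 1082 UMIs per library, against 2739 to 117832 for *Eno1*. A second gene identifier named *Aldoa* had at most 8 UMIs, and *Aldoart1* and *Aldoart2* at most 5.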

How the data were processed

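Single-cell suspensions of GFP+ cells sorted from hindlimb muscle were sequenced on the 10X Chromium 3′ platform, with 5 libraries of 2 pooled mice each. The deposited matrices hold raw UMI counts per gene and cell barcode, made by the authors with Cell Ranger (matrix header 3.1.0) from mouse reads aligned to mm10 and filtered for cell barcodes, and the submitters' processing notes name Seurat 3.1.2 for later steps. The values are not normalized. The 31055 gene rows and 34439 barcodes were read as deposited, and 0 columns were left unused.

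The 10 genes, the gene lists, the markers and the conditions were chosen with earlier results of these data known. Cells with 350 to 8000 genes, under 20% mitochondrial UMIs and at least 1000 UMIs were retained, and their counts were summed per library (17437190 to 202233564 UMIs, so 1 CPM is 17.4 to 202 UMIs). Levels carry exact 95% Poisson intervals, ratios exact conditional binomial intervals and shares exact Clopper-Pearson intervals. With 1 library per condition a gene was counted as changed from a ratio of 2-fold, among genes with at least 20 UMIs over both libraries. Median-of-ratios size factors were the second scaling.

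Clusters were found per library with scanpy 1.11.5 (2000 variable genes without the members and lists, 20 components, 20 neighbours, Leiden resolution 0.5) and named from at least 3 markers, by a rule set after the clusters were seen. Scrublet with its own threshold called 0 to 46 cells per library, so doublets were kept and the highest scores were left out only as an alternative. Named were all members, isoforms of the same reaction, pathway genes past 2-fold at 20 CPM or more, and the 10 genes most like the members. Some isoforms are not reported here. Ratios were checked on simulated counts. Python 3.11.15, numpy 2.4.6 and scipy 1.17.1 were used.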

Additional observations from a re-analysis of the deposited data

How the results depend on the processing

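Differences between single libraries carry no replicate error, so the values below show only how far the choices made here move them. No paired analysis was possible because each condition has 1 library. Leaving out a library was not possible for the same reason. Counts of genes past 2-fold are given below without the share of all genes. Of 700 member ratios recomputed under 14 other settings, 688 kept their direction. Some of them could not change, because the clusters that a setting leaves out were absent from both libraries of a comparison. The deposited conditions, counted apart, kept the direction of 16 of 50 ratios and turned 34. At d3 post-fracture against d0, median-of-ratios scaling gave a median of 2.19, and turned *Hk2* to 0.13.

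For d3 post-polytrauma against d3 post-fracture (0.20 as reported) the median was 0.21 with median-of-ratios scaling, 0.22 with totals without mitochondrial and the 50 most abundant other genes, 0.24 as the mean over cells, 0.22 without dividing cells, and 1.31 with 9 genes past 2-fold in FAP/MP-like cells only. For d5 against d3 post-fracture (−1.22) it was −1.95 with median-of-ratios scaling, −1.37 as the mean over cells, −1.64 without shared barcodes, −1.37 without dividing cells and −1.78 in FAP/MP-like cells only, where *Hk2* (0.12) and *Pdk1* (−0.21) turned. For d5 against d3 post-polytrauma (−0.64) it was −1.11 with 6 genes past 2-fold under median-of-ratios scaling, −0.69 with totals without the most abundant genes, −0.75 as the mean over cells, and −1.04 with 6 genes in FAP/MP-like cells, where *Pdk1* turned (−0.36). A threshold of 1.5-fold in place of 2-fold counted 7 genes there, 6 lower and *Pdk1* higher. For d5 post-polytrauma against d5 post-fracture (0.80, 1 gene past 2-fold) it was 0.92 with 2 genes under median-of-ratios scaling, 1.02 with 5 genes without shared barcodes, 0.88 with 3 genes without dividing cells and 2.14 with 9 genes in FAP/MP-like cells. Totals without the most abundant genes left 0 genes past 2-fold there, and a threshold of 1.5-fold counted 6.

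The remaining settings were chosen after seeing the data. Without the clusters that have *Ndufa4l2* and *Egln3* among their first 10 genes the medians of polytrauma against fracture were 0.11 at d3, where *Gapdh* (−0.03) and *Eno1* (−0.03) turned, and 0.60 at d5 with 0 genes past 2-fold, where *Eno1* was at −0.05 and *Pdk1* at −0.0029. Without the chondrocyte-like clusters the median was −1.73 for d5 against d3 post-fracture, where *Hk2* turned (0.02), and 1.15 with 7 genes for both injuries at d5. In FAP/MP-like cells outside the *Ndufa4l2* and *Egln3* clusters it was 0.52 with 2 genes for both injuries at d3, −1.78 for d5 against d3 post-fracture, −0.70 with 4 genes for d5 against d3 post-polytrauma (*Pdk1* −0.53) and 1.62 with 9 genes for both injuries at d5. The cause of these shifts was not tested.

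Under the deposited labels, in the same order, the medians are −1.22 with 7 genes, 0.20 with 0, 0.80 with 1 and −0.64 with 2, since 2 libraries exchange places. For d5 against d3 post-fracture *Slc2a1* is then at 0.51, *Aldoa* at 0.18, *Gapdh* at 0.083, *Pgk1* at 0.31, *Eno1* at 0.11, *Pkm* at 0.22 and *Ldha* at 0.11. For d5 against d3 post-polytrauma *Slc2a1* is at 0.81 and *Eno1* at 0.18, and for both injuries at d5 *Pgk1* is at −0.49. With at least 2000 UMIs per cell the median share of UMIs on the 10 genes was 0.244% at d0, 0.729% at d3 post-fracture and 0.431% at d5 post-polytrauma. Depth limits *Pdk1* most, with 48 UMIs at d0.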

Other observations

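Genes that stood against the members were found in the same comparison over 48 clusters. The lowest Pearson r with the members' mean belonged to *Irf1* (−0.90), a transcription factor of the interferon response, *Nfia* (−0.89), *Rnd3* (−0.87) and *Zfp36* (−0.85), an RNA-binding protein that destabilizes messenger RNA. *Txnip*, whose protein restrains glucose uptake, was at −0.82. Within the 12 d0 clusters alone *Irf1* was at 0.45, *Nfia* at −0.45, *Rnd3* at −0.67, *Zfp36* at −0.20 and *Txnip* at −0.23. These values are descriptions over clusters that share libraries.

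*Gapdh*, often used as a reference gene, differed 5.20-fold between d0 and d3 post-polytrauma (608 and 3161 CPM), the latter being the library deposited as d5 after fracture. Its share in the UMIs of the 10 genes moved less, from 23.2% at d0 to 34.1% at d3 post-fracture, while the share of *Hk2* was 17.2% at d0 and 3.99% to 8.81% in the injured libraries.

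*Hif1a*, the regulated subunit of HIF-1, was at 84.5 CPM at d0, 181 at d3 post-fracture, 434 at d5 post-fracture, 156 at d3 post-polytrauma and 408 at d5 post-polytrauma. Both d5 libraries were thus above both d3 libraries. The d5 libraries are also those of the other barcode set, and by the deposited labels they would be d3 and d5 after polytrauma. The log2 ratio of d5 against d3 was 1.26 after fracture and 1.39 after polytrauma, where all genes shifted by 0.73 and 0.48. Protein was not measured, and the relation of *Hif1a* to the members was not tested.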
